A study of Mus musculus with 47 samples.

Results

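Day 11 embryoid bodies (EBs) grown from mouse embryonic stem cells that had received an siRNA against Tdg (siTdg) were compared with day 11 EBs from cells given a control siRNA (siC). EBs are aggregates in which pluripotent cells differentiate into several tissues at once. The 4 libraries, 2 siC and 2 siTdg, were chosen by their titles, out of 47 samples in the series. Libraries with the same replicate number, 1 or 2, were taken as a pair. All 4 came from the line E14Tg2A, which the labels describe as kept in serum-free medium with LIF and the kinase inhibitors PD0325901 and CHIR99021. Total RNA was depleted of ribosomal RNA and sequenced with a stranded kit. The labels state neither the day of transfection, nor the way EBs were formed, nor the source of the 2 libraries of a group. The 2 libraries of a group differ widely, as given below, but whether they are separate cultures is not stated. With replicate number in the model, p-values cover only the spread of the change between the 2 pairs. Most of that spread is borrowed from other genes. Of 24507 genes in the deposited table, 13300 had a mean of at least 0.5 RPKM over the 4 libraries and were tested. RPKM here are reads scaled by gene length and by a factor for each library that is not proportional to its total reads.

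Thymine DNA glycosylase, the product of Tdg, cuts out thymine paired with guanine and the oxidised cytosines that TET enzymes make from 5-methylcytosine, and base excision repair then puts back an unmodified cytosine. It is thereby one route of active DNA demethylation, and mouse embryos that lack it die before birth. EBs of this age commonly hold derivatives of extraembryonic endoderm, which secretes serum proteins as the yolk sac does, together with primitive blood, heart muscle and mesenchyme.

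Tdg itself was not lower in siTdg EBs. Its level was 35.1 and 38.5 RPKM in the siC libraries and 37.3 and 43.7 RPKM in the siTdg libraries, replicates 1 and 2 in that order here and throughout. Each siTdg library lay slightly above its siC partner, and the log2 change of 0.13 (SE 0.14) did not pass (adjusted p = 0.868 by limma). In undifferentiated cells of the same series Tdg was at 46 and 43.4 RPKM in siC against 7.34 and 13.2 RPKM in siTdg at 48 h, and at 35.8 and 46 against 28.2 and 40.3 RPKM at 96 h. The knock-down that was large at 48 h was thus small at 96 h and not seen at day 11, so the group differences below were measured in EBs whose Tdg transcript was no lower than in siC. The effects of the siRNA on Tdg at day 11 and 48 h differed by 2.26 log2 units (adjusted p = 0.0771 by limma).

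**Figure D1:**
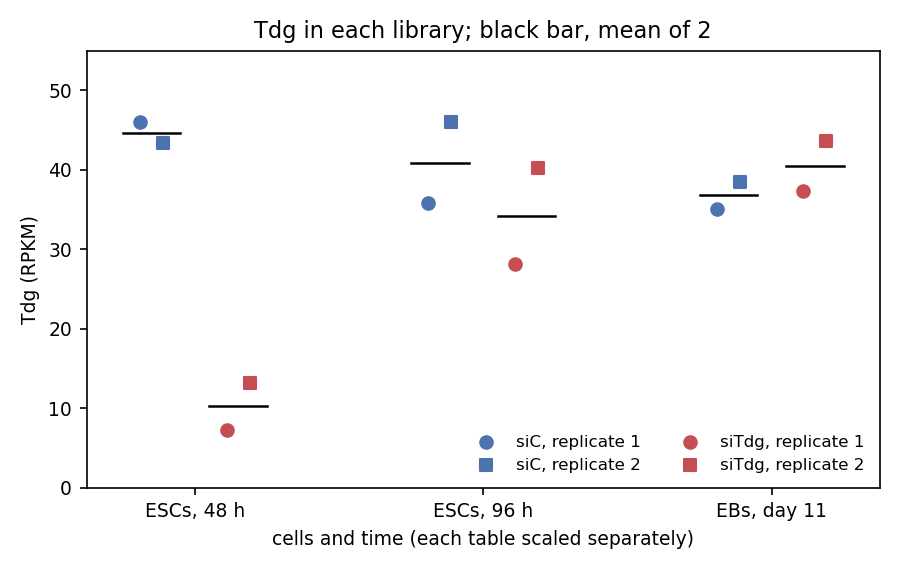
Tdg level in RPKM (y axis) in each library of the 48 h, 96 h and day 11 tables (x axis), each scaled separately. Circles and squares are replicates 1 and 2, and bars are means of 2; siTdg libraries lie at 7.34 and 13.2 RPKM at 48 h and at 37.3 and 43.7 RPKM at day 11.

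The 2 replicate numbers differed far more than the 2 siRNAs did. Reads recovered per library were 38825128 and 21775039 for siC and 41433232 and 20818174 for siTdg. The library factors by which RPKM are scaled were 1.632 and 0.6389 for siC and 1.586 and 0.6193 for siTdg. Differences in RPKM between replicate numbers depend on these factors. Between replicate numbers 3824 genes (28.8%) were at least 2-fold apart in the same direction in both siRNA groups, against 14 genes (0.105%) between siRNAs in both pairs. Ribosomal protein genes took 5.94% and 5.91% of reads in replicate 1 of siC and siTdg, and 23.9% and 21.8% in replicate 2, while collagen genes took 3.71% and 4.39% against 0.408% and 0.334%. Replicate number was therefore a term of the model. Within a pair the median absolute difference between siRNAs was 0.13 log2 units in pair 1 and 0.19 in pair 2. An unpaired permutation test of 2 libraries against 2 cannot go below an exact p of 0.333, and swaps within pairs allow fewer arrangements still. The calls below therefore rest on a model fitted across all genes that borrows their spread, with 1 residual degree of freedom of its own.

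That model called 150 of 13300 genes (1.13%) at an adjusted p under 0.05 (Benjamini-Hochberg over all genes tested), 66 higher in siTdg (0.496%) and 84 lower (0.632%). Log2 changes and all folds given here are of RPKM + 0.5, which understates the change of weakly expressed genes. A fold can therefore be smaller than the ratio of the RPKM printed beside it. Of the calls 78 were of protein-coding and long RNA genes, 55 higher and 23 lower, and 72 were of genes for small RNAs. There were 9 other fits with replicate number as a term. The one with no filter on low values called 0 of 19905 genes (0%), so no call held in all 9; 1048 genes had an unadjusted p under 0.05 there. In the other 8 (other pseudocounts, filters and scalings, no trend, and limma-voom on reads) 21 of the 78 genes, 19 higher and 2 lower, were called wherever they were tested. The 19 are Afp, Trf, Ambp, Fgb, Hbb-bh1, Hbb-y, Hba-x, Adm, Ndufa4l2, Cox4i2, Mpeg1, Adgre1, Cd53, Qpct, Calb2, Nepn, Pcbd1, Trap1a and 4933402E13Rik, and the 2 are Gli1 and Meg3. When replicate number was left out of the model limma called 0 genes (0%), with 20 under an unadjusted p of 0.05. Of 13424 genes with an adjusted p in the authors' deposited table, 10 (0.0745%) passed the same threshold, 8 higher and 2 lower in siTdg. All 10 were among the 150, of which 70 had no adjusted p in that table and so could not pass there. They are Afp, Hbb-y, Hba-x, Hbb-bh1, Trf, Pgk1, Ambp and Mpeg1, higher, and Meg3 and Gli1, lower. Genes of the 21 outside these 10 did not pass in that deposited table. Adjusted p there was 0.0879 for Cd53 and Nepn, 0.149 for Fgb, 0.72 for Qpct and 0.741 for Adm, and higher for some others. All the blocked fits used the same libraries, so they are not independent of each other.

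**Figure D2:**
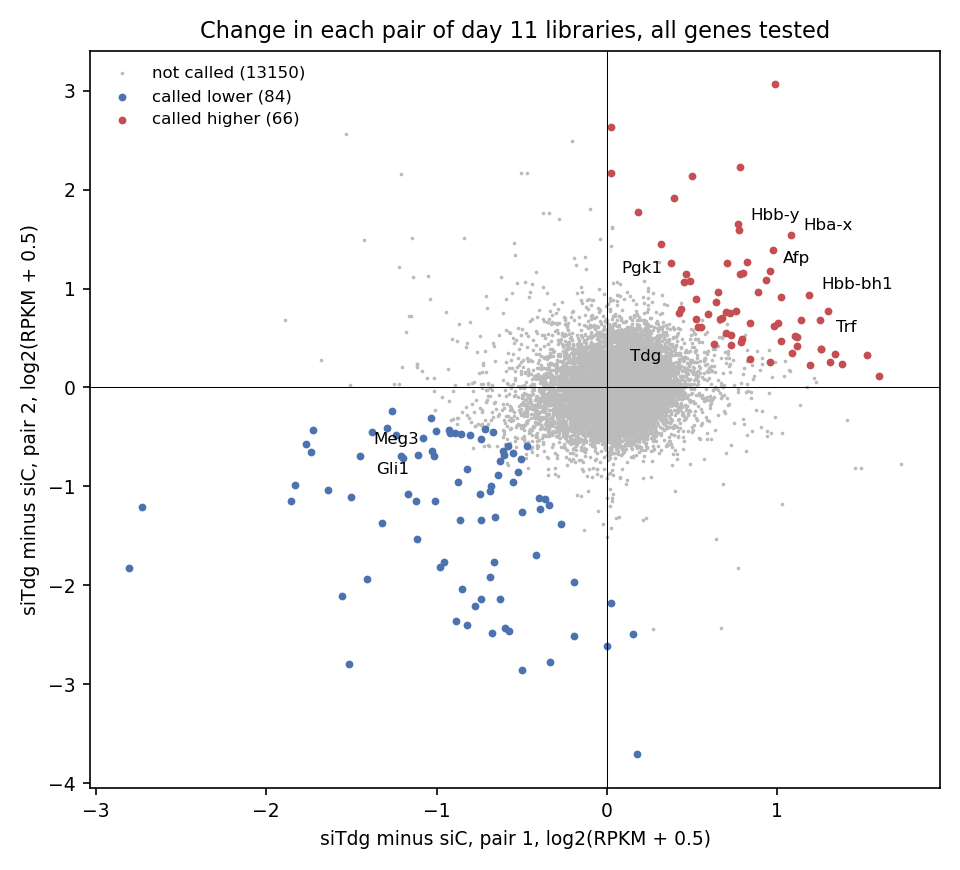
Change of each of 13300 genes in pair 1 (x axis) and pair 2 (y axis), siTdg minus siC in log2(RPKM + 0.5). Grey points were not called, 66 red points were called higher and 84 blue points lower; Afp and the embryonic globins lie high in both pairs, Gli1 and Meg3 low in both, and Tdg near 0.

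Of the 27 gene lists, which were chosen with earlier results of these data known, that of yolk sac and visceral endoderm held the most calls, 8, all of them secreted proteins. Of 15 tested secreted members 8 were called higher and none lower. All 15 had a log2 change above 0 and 13 were above 0 in both pairs, with a median of 0.77 (0.83 in pair 1, 0.42 in pair 2). Over all genes tested 0.496% were called higher and 0.632% lower. Of the same genes 54.4% were above 0, 32.6% were above 0 in both pairs, and the median was 0.02. In these bulk libraries, more cells of a type and more RNA per cell cannot be told apart.

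Afp encodes alpha-fetoprotein, the main serum protein of the embryo, made by visceral endoderm and later by liver. It was at 69.6 and 127.8 RPKM in siC and 135.7 and 289.6 RPKM in siTdg. Both siTdg libraries lay above both siC libraries, 1.94-fold in pair 1 and 2.26-fold in pair 2 (log2 change 1.07, SE 0.14, adjusted p = 2.91e-05 by limma). The 250 bases before its start are printed here because Afp was both the most abundant called member of its list and the call with the smallest p in the authors' deposited table. They lie at chr5:90490464-90490713 on the plus strand (RefSeq, GRCm38.p6, a later build than the mm9 of the files), 5′ to 3′, and capitals mark the letters GTTAA, the half-site of the endoderm factor HNF1, on either strand, 3 in all, of which 2 overlap in GTTAAC.
Afp: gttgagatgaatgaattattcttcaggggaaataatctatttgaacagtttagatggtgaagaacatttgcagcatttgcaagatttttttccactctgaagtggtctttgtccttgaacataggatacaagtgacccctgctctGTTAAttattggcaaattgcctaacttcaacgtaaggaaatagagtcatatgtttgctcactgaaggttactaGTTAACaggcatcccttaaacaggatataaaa
Among all 32851 promoter windows of this length 21.7% hold GTTAA on either strand. A match is a description of letters and not of binding.

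Trf, transferrin, the iron carrier of plasma, was at 6.82 and 2.25 RPKM in siC and 17.5 and 4.19 RPKM in siTdg. It rose by 1.03 on the log2 scale (SE 0.16, adjusted p = 0.000233 by limma), 2.46-fold in pair 1 and 1.71-fold in pair 2, although the groups overlapped because both libraries of replicate 1 were higher. Fgb, the beta chain of fibrinogen, was at 1.88 and 2.45 RPKM in siC and 3.72 and 6.61 RPKM in siTdg, without overlap (log2 change 1.05, SE 0.17). Its partner Fgg, the gamma chain, rose by 0.81, from 0.357 and 0.685 RPKM to 0.685 and 2.12 RPKM, a call lost with a pseudocount of 0.1, quantile normalization and median centring. The third chain, Fga, fell short of the filter, at 0.237 and 0.0478 RPKM in siC and 0.706 and 0.148 RPKM in siTdg.

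Ambp, the precursor of alpha-1-microglobulin and bikunin, was at 0.397 and 3.64 RPKM in siC and 1.04 and 12 RPKM in siTdg (log2 change 1.19, SE 0.19, adjusted p = 0.000239 by limma). Lipid and retinol carriers moved more in pair 1. Apoa1, the main protein of high-density lipoprotein, was at 9.44 and 37.8 RPKM in siC and 21.1 and 50.8 RPKM in siTdg (log2 change 0.77, 2.17-fold in pair 1 and 1.34-fold in pair 2). Apom, an apolipoprotein that carries sphingosine 1-phosphate, rose by 0.81 (1.12 and 0.51 in the 2 pairs), and Rbp4, the retinol carrier of plasma, by 0.82 (1.26 and 0.38). With quantile normalization Apoa1, Apom, Rbp4 and Fgg were no longer called, so 4 of the 8 calls were lost.

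Other secreted members did not pass. Apoe was at 74.1 and 67.9 RPKM in siC and 97.5 and 102.3 RPKM in siTdg (log2 change 0.49, adjusted p = 0.0966 by limma), without overlap. Ttr, the thyroid hormone carrier transthyretin and a standard marker of visceral endoderm, was at 8.47 and 58.5 RPKM in siC and 15.4 and 57.2 RPKM in siTdg, so its difference of 0.83 in pair 1 was absent from pair 2 (-0.03). Apob and Apoa2 had the same shape, with 0.86 and 0.79 in pair 1 and 0.08 and 0.05 in pair 2. Of the 8 called members Afp, Ambp, Fgb and Fgg changed more in pair 2, and Trf, Apoa1, Apom and Rbp4 more in pair 1.

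The other roles of the yolk sac list did not move in this way. None of 6 uptake receptors, transporters and brush border genes was called, and their median was 0.45 in pair 1 and -0.16 in pair 2. Lrp2 and Cubn, the endocytic receptors megalin and cubilin, had log2 changes of 0.18 and 0.40. None of 10 transcription factors and signals of endoderm was called, with a median of 0.03. With 1.13% of all genes tested called, sets this small often hold no call. Hnf4a, a nuclear receptor that drives serum protein genes, was at 0.468 and 0.402 RPKM in siC and 0.662 and 0.747 RPKM in siTdg. It was higher without overlap but at levels near the filter, with a log2 change of 0.37, while Gata4 stood at 19.4 and 16.2 against 20.2 and 15.4 RPKM.

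Embryonic globins rose about as much as Afp did, while the rest of the red cell list did not. Primitive red cells of the yolk sac express the beta-like globins Hbb-bh1 and Hbb-y and the alpha-like globin Hba-x before adult globins take over. Hbb-bh1 measured 1.58 and 216.6 RPKM in siC and 4.24 and 413.0 RPKM in siTdg. Hbb-y was at 2.37 and 78.2 RPKM in siC and 4.39 and 246.2 RPKM in siTdg. Hba-x was at 0.979 and 25 RPKM in siC and 2.63 and 73.9 RPKM in siTdg. All 3 were far higher in replicate 2 of both siRNAs, so the groups overlapped, and within each pair the siTdg library was higher. The log2 changes were 1.06 (SE 0.14, adjusted p = 1.73e-05), 1.21 (SE 0.16, adjusted p = 1.86e-05) and 1.31 (SE 0.15, adjusted p = 4.33e-06) by limma, which is 2.28-fold and 1.9-fold, 1.7-fold and 3.13-fold, and 2.11-fold and 2.92-fold in the 2 pairs. In replicate 1 these values rest on 46, 70 and 28 reads in siC and 120, 126 and 73 reads in siTdg. The globin genes resemble each other in sequence, and how reads that match several were counted is not given in the sources used here.

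Promoters of the 2 globins found in the RefSeq table are shown because these were among the genes with the largest changes in both pairs. Capitals mark CACCC, read by KLF-type factors, and CCAAT, on either strand. Of the GATA motif only the form AGATAA was searched, and it has no match in either window. Another form, TGATAA, was not searched and is not in capitals. It stands in the Hba-x window, and its reverse complement TTATCA in the Hbb-y window. The Hbb-y window is chr7:103853208-103853457 on the minus strand and the Hba-x window chr11:32276350-32276599 on the plus strand (GRCm38.p6), 5′ to 3′.
Hbb-y: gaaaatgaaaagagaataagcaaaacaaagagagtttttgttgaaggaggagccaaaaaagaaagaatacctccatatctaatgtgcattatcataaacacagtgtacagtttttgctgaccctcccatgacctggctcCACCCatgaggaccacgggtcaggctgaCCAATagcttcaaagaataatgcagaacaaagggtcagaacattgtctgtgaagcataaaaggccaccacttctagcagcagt
Hba-x: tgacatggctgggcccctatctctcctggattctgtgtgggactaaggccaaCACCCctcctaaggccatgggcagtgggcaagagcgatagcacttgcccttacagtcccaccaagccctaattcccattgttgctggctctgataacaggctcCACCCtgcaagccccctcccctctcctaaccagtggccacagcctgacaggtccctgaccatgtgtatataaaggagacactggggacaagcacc
Hbb-y holds 1 CACCC and 1 CCAAT and Hba-x 2 CACCC. Of all windows 52% hold CACCC, 33.8% CCAAT and 9.99% AGATAA.

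Of 34 entries of the red cell list 15 were tested, and the 3 globins were the only ones called. Over all genes tested 0.496% were called higher. None of 7 heme and iron genes was called, with a median of 0.11. Tfrc, the transferrin receptor, came nearest, at 39.8 and 30.7 RPKM in siC and 50.1 and 52.1 RPKM in siTdg (log2 change 0.54, adjusted p = 0.0506 by limma). Alas2, the red cell enzyme that starts heme synthesis, was at 0.477 and 1.19 against 0.654 and 2.9 RPKM (0.63, adjusted p = 0.176). Gata1 and Klf1, the factors that define the red cell lineage, did not reach the filter: Gata1 lay between 0.0992 and 0.232 RPKM and Klf1 between 0.0683 and 0.175 RPKM over the 4 libraries. Endothelial and blood progenitor genes, 24 tested, had no call in either direction, against 1.13% of all genes tested. Their 2 roles had medians of 0.10 and 0.01. Kdr, the VEGF receptor of endothelium and its precursors, was at 25.8 and 12 against 37.6 and 10.5 RPKM.

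**Figure D3:**
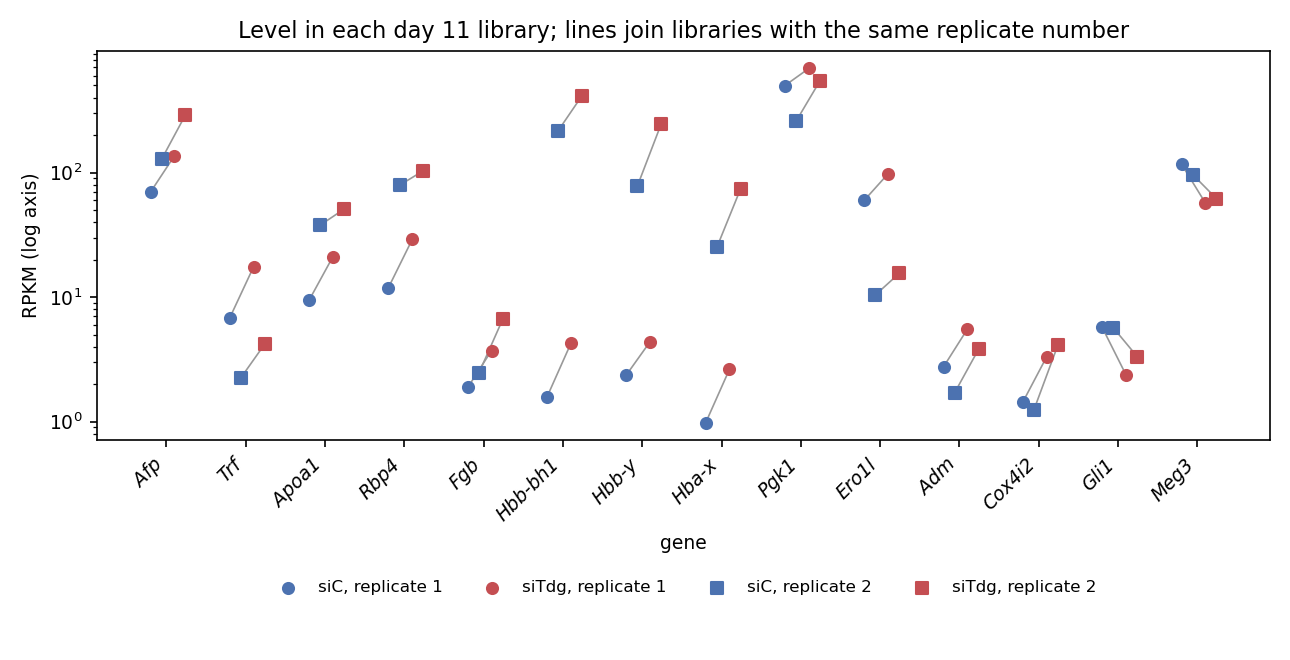
RPKM on a log axis (y axis) of 14 genes (x axis) in each of the 4 day 11 libraries. Blue is siC, red is siTdg, circles are replicate 1 and squares replicate 2, and a grey line joins each pair; globins stand far higher in replicate 2 than in replicate 1 yet lie higher in siTdg within both pairs, and Gli1 and Meg3 lie lower.

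Several genes known from macrophages were also called higher. Mpeg1, perforin-2, which is also in the authors' deposited list, was at 0.527 and 1.03 RPKM in siC and 1.17 and 3.15 RPKM in siTdg (log2 change 0.98, SE 0.19, adjusted p = 0.00308 by limma). Adgre1, which encodes the macrophage antigen F4/80, was at 1.36 and 1.07 RPKM in siC and 3.6 and 2.03 RPKM in siTdg (0.91, SE 0.18). Neither overlapped between groups. Named after their values were seen, the leukocyte tetraspanin Cd53 (0.96), the lysosomal protease Ctss (0.75), Aif1 (0.75), the Fc receptor Fcgr2b (0.68), lysozyme Lyz2 (0.61) and the complement gene C1qb (0.58) were higher as well. Lyz2 was at 2.96 and 26.9 RPKM in siC and 4.47 and 43.9 RPKM in siTdg, so it too was mostly a replicate 2 transcript. In the blood progenitor and leukocyte list, drawn up without these genes, 0 of 7 tested members passed, against 1.13% of all genes tested. Its macrophage members were Csf1r, the receptor for the macrophage growth factor, at 1.33 and 2.18 against 1.72 and 2.95 RPKM (0.32), and the factor Spi1, with 0.82 in pair 1 and -0.05 in pair 2. The leukocyte antigen Ptprc was under the filter, at 0.263 and 0.312 RPKM in siC and 0.564 and 0.761 RPKM in siTdg. Mpeg1, Adgre1 and Cd53 held in 8 of the 9 other blocked fits, Aif1 in 7, Ctss and Lyz2 in 5, Fcgr2b in 4 and C1qb in 2. By limma-voom Aif1, Ctss, Fcgr2b and C1qb were not called, and with quantile normalization Ctss, Lyz2, Fcgr2b and C1qb were not. Plek and Lcp1, signalling and actin-bundling proteins of blood cells, had no overlap and missed the threshold, at 1.07 and 1.67 against 2.06 and 2.89 RPKM (0.68, adjusted p = 0.0531) and 2.42 and 2.06 against 4.1 and 3.16 RPKM (0.59, adjusted p = 0.112). Plek passed with a filter of a mean of at least 1 RPKM (adjusted p = 0.029 by limma) and without the trend (0.0436).

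The list of low oxygen response and glycolysis genes held 5 calls, all higher. Cells short of oxygen stabilise the factor HIF1, which raises glucose transporters, glycolytic enzymes and a set of regulators. Of 26 tested members 5 were called higher and none lower, against 0.496% and 0.632% of all genes tested. The list also had 24 members above 0 (92.3%) and 16 above 0 in both pairs (61.5%), against 54.4% and 32.6% of all genes. Its median was 0.23 (0.36 in pair 1, 0.09 in pair 2), against 0.02 over all genes. Of its parts, 12 hypoxia response genes held 4 of the calls and a median of 0.46, and 14 glycolysis genes held 1 call and a median of 0.19 (0.33 and 0.06).

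Pgk1, phosphoglycerate kinase, was at 499.4 and 258.4 RPKM in siC and 684.4 and 542.6 RPKM in siTdg. It rose without overlap by 0.76 (SE 0.18, adjusted p = 0.0183 by limma), more in pair 2 (2.1-fold) than in pair 1 (1.37-fold), and was not called with quantile normalization. Its neighbours in the pathway did not pass: Ldha, lactate dehydrogenase, was at 451.8 and 229.9 against 581.5 and 319.6 RPKM (0.42, adjusted p = 0.355) and Aldoa, aldolase, had a log2 change of 0.25. Slc2a1, the main glucose transporter, was at 246.9 and 57.6 against 347.7 and 55.2 RPKM, higher in pair 1 and level in pair 2. Slc2a3, another glucose transporter, which is outside the list and named after its value was seen, was called (0.61), with 0.96 in pair 1 and 0.26 in pair 2, and held in 4 of 9 other blocked fits.

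Adm, adrenomedullin, a vasodilator peptide, was at 2.76 and 1.71 RPKM in siC and 5.53 and 3.8 RPKM in siTdg, without overlap and alike in both pairs (1.85-fold and 1.95-fold, adjusted p = 0.00149 by limma). Ndufa4l2, a mitochondrial protein raised by HIF1, was at 2.9 and 0.167 RPKM in siC and 5.99 and 0.919 RPKM in siTdg (1.01, SE 0.18), with 3 and 16 reads in replicate 2. Ankrd37 was at 3.85 and 14.7 RPKM in siC and 10.5 and 18.8 RPKM in siTdg (0.84), mostly in pair 1, and was not called with quantile normalization. Ero1l, an oxidase of disulfide bond formation, was at 59.9 and 10.4 RPKM in siC and 97.7 and 15.5 RPKM in siTdg (0.63, SE 0.14), and was not called without the trend. Egln3, a prolyl hydroxylase that marks HIF for decay, stood at 10.4 and 4.4 against 15.9 and 6.71 RPKM and just missed the threshold (0.57, adjusted p = 0.0512). Vegfa, the vascular growth factor, was at 26 and 22.9 against 30.2 and 19.8 RPKM (0.00), and Car9, carbonic anhydrase 9, at 1.4 and 0.984 against 0.859 and 0.987 RPKM (-0.24), so not every HIF target was higher.

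Outside the list, Cox4i2, the alternative subunit of cytochrome c oxidase that is induced by low oxygen, was at 1.44 and 1.25 RPKM in siC and 3.32 and 4.1 RPKM in siTdg. Its 1.97-fold and 2.63-fold changes (log2 change 1.19, SE 0.18, adjusted p = 0.000123 by limma) left no overlap between the groups. In the authors' deposited table its log2 change was 1.44 with a wider SE of 0.55, and it did not pass there. Ddit4, an inhibitor of mTORC1 that stress and low oxygen induce, was at 30.7 and 29.6 RPKM in siC and 51.3 and 43.1 RPKM in siTdg (0.63, SE 0.14), also without overlap, a call lost with quantile normalization and without the trend. Further genes higher in both pairs without overlap were Dpp4, a serine peptidase of the cell surface (1.43 and 1.37 against 2.69 and 2.65 RPKM, 0.74), Qpct, which forms pyroglutamate at peptide ends (3.44 and 1.87 against 5.69 and 4.13 RPKM, 0.81), and Tmprss2, a transmembrane protease (2.75 and 3.05 against 4.4 and 5.44 RPKM, 0.67). Dpp4 and Tmprss2 each held in 5 of 9 other blocked fits and Qpct in 8.

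The 3 called members of the hypoxia and glycolysis list with a RefSeq promoter window are shown for the core letters that HIF binds, ACGTG or GCGTG on either strand, in capitals. The windows are chrX:106186850-106187099 plus strand, chr7:110627407-110627656 plus strand and chr8:45999851-46000100 minus strand (GRCm38.p6), 5′ to 3′.
Pgk1: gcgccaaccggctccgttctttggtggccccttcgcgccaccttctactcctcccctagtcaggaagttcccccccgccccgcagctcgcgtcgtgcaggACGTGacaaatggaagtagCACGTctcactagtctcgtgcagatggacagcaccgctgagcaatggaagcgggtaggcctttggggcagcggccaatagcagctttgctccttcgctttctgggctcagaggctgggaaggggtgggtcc
Adm: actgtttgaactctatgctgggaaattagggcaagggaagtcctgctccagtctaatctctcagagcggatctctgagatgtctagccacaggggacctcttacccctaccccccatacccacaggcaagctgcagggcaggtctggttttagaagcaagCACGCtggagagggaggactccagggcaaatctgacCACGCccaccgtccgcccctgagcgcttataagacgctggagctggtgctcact
Ankrd37: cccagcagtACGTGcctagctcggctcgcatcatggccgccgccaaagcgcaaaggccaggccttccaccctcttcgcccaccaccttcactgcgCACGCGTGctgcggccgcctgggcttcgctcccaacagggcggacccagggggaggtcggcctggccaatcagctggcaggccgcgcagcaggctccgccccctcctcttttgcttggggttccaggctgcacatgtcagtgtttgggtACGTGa
There are 2 cores in Pgk1, 2 in Adm and 4 in Ankrd37, of which 2 overlap. Windows were found for 24 of the 26 tested members, 32 windows in all, and 25 (78.1%) hold a core, against 38.6% of all windows. This share covers called and uncalled members alike, and many members of such lists are known HIF targets.

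**Figure D4:**
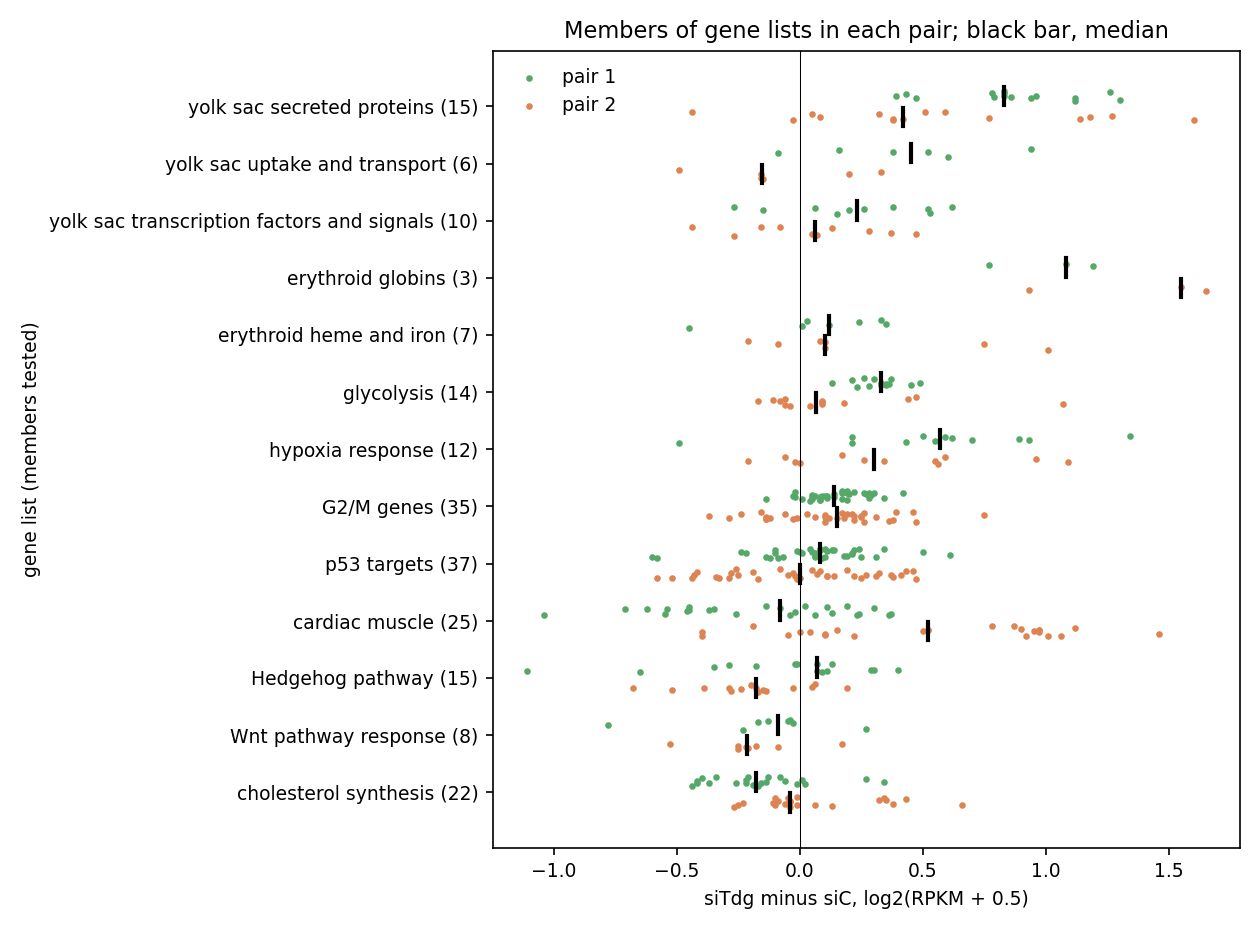
Change of each tested member, siTdg minus siC in log2(RPKM + 0.5) (x axis), for 13 gene lists or their parts (y axis, members tested in brackets). Green is pair 1, orange is pair 2, and a black bar is the median; globins and secreted yolk sac proteins lie above 0 in both pairs at the median, while cardiac genes have medians of -0.08 and 0.52.

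Fewer genes that are not small RNAs were lower, and of these Gli1 and Meg3 alone held in 8 of the 9 other blocked fits. Gli1 is a transcription factor at the end of the Hedgehog pathway and itself a target of that pathway, so its level is widely used as a readout. It was at 5.7 and 5.66 RPKM in siC and 2.37 and 3.33 RPKM in siTdg. Both siTdg libraries lay below both siC libraries, 2.16-fold in pair 1 and 1.61-fold in pair 2 (log2 change -0.90, SE 0.17, adjusted p = 0.00213 by limma). It was the only one of 15 tested Hedgehog genes that was called, against 1.13% of all genes tested. Ptch1, the receptor and another target, was at 11.8 and 5.34 against 9.18 and 4.65 RPKM (-0.27, adjusted p = 0.668 by limma). The ligand Shh was at 2.97 and 1.43 against 1.71 and 1.24 RPKM (-0.40), the activator Gli2 had -0.02 in pair 1 and -0.52 in pair 2, and Smo, the signal transducer, was at 31.6 and 39.4 against 31.3 and 38.5 RPKM. The median over the list was -0.10, with 0.07 in pair 1 and -0.18 in pair 2.

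Meg3, a long RNA expressed from the maternal copy of the imprinted Dlk1-Dio3 region, was at 116.5 and 96.3 RPKM in siC and 57 and 61.7 RPKM in siTdg. It fell without overlap by 0.83 on the log2 scale (SE 0.14, adjusted p = 0.00061 by limma), 2.04-fold in pair 1 and 1.56-fold in pair 2. The other long RNAs and the coding genes of that region did not pass. Mirg was at 26.7 and 54.4 against 20.1 and 45.3 RPKM (-0.33), Rian at 303.5 and 449.2 against 260.5 and 503.7 RPKM (-0.03), and the paternally expressed Dlk1 at 356.8 and 156.0 against 418.3 and 117.8 RPKM (-0.09). Of 28 tested imprinted genes the only other call was Magel2, a paternally expressed gene of the Prader-Willi region, lower by 0.72 (1.39 and 3.85 against 0.44 and 2.71 RPKM, adjusted p = 0.048), which held in 3 of 9 other blocked fits. H19 had -1.01 in pair 1 and 0.09 in pair 2, and Igf2, among the most abundant transcripts of these EBs, stood at 5044.7 and 2152.1 against 5599.5 and 2496.9 RPKM. The imprinted list as a whole had 2 calls among 28 tested, against 1.13% of all genes tested, and a median of -0.03.

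Other lower genes were Leng8, which acts in RNA processing (30.4 and 34.7 against 15.8 and 25.1 RPKM, log2 change -0.69, adjusted p = 0.00605 by limma), Firre, a long RNA of the X chromosome that organises chromatin (14.6 and 25.5 against 7.65 and 18.4 RPKM, -0.68), Zfp692 (-0.66) and Gigyf1, a partner of translational repressors (13.3 and 13 against 8.75 and 8.47 RPKM, -0.58). Leng8, Zfp692 and Gigyf1 did not overlap between groups. Gigyf1 was 1.5-fold lower in each pair, the most even change among these. Mid1, an X-linked ubiquitin ligase (-0.56), Rsrp1 (-0.57) and Dtx3 (-0.53), named after their values were seen, were lower too. Leng8 and Firre held in 7 of 9 other blocked fits, Rsrp1 in 5, and Zfp692, Gigyf1, Mid1 and Dtx3 in 4 each. Below the threshold, Nrbp2 (9.08 and 10.5 against 6.09 and 7.08 RPKM, -0.54 in each pair), the T-box factor Tbx2 (4.29 and 4.95 against 2.88 and 3.32 RPKM, -0.50 and -0.51) and the corepressor Tle2 (3 and 3.28 against 1.67 and 2 RPKM, -0.69 and -0.60) had closely matched pairs without overlap, with adjusted p of 0.0857, 0.201 and 0.0662 by limma. Nrbp2 and Tle2 passed where a mean of at least 1 RPKM was asked for (adjusted p = 0.0341 and 0.031 by limma). Among 46 replication-dependent histone genes tested, 1, Hist1h2ah, was called lower (-0.87) on 13 to 39 reads, though not with quantile normalization or by limma-voom, with a list median of -0.08. Across all genes tested 687 (5.17%) were higher and 549 (4.13%) lower in both siTdg libraries than in both siC libraries, while 31 (0.233%) and 49 (0.368%) were at least 1.5-fold higher or lower in both pairs.

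Small RNA genes made up 61 of the 84 lower calls (72.6%) and 11 of the 66 higher ones, against 1.69% of genes tested. Of the 61, 53 had a mean under 20 reads, with a median of 4.75 reads. Scarna9, a guide RNA of Cajal bodies, had 6 and 1 reads in siC and 0 and 0 in siTdg, and Mir106b had 11 and 1 reads against 0 and 0. Snord88a had 12 and 4 reads against 3 and 0. At such depth 1 read moves log2(RPKM + 0.5) of a short gene by a large step. Limma-voom, which weights by reads, called 102 genes (0.767%), 77 higher (0.579%) and 25 lower (0.188%), of which 2 were small RNA genes. With a mean of at least 20 reads the count was 145 of 12976 (1.12%), 96 higher (0.74%) and 49 lower (0.378%). The share of calls that were higher was thus 44% in the main count, 75.5% by limma-voom, 66.2% with at least 20 reads, and 35.6% and 36.1% with quantile normalization and median centring. Short RNA genes lie inside or beside longer host genes, and reads of the 2 cannot be told apart here. Snhg9, a snoRNA host gene, had 18 and 10 reads in siC and 13 and 0 in siTdg.

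**Figure D5:**
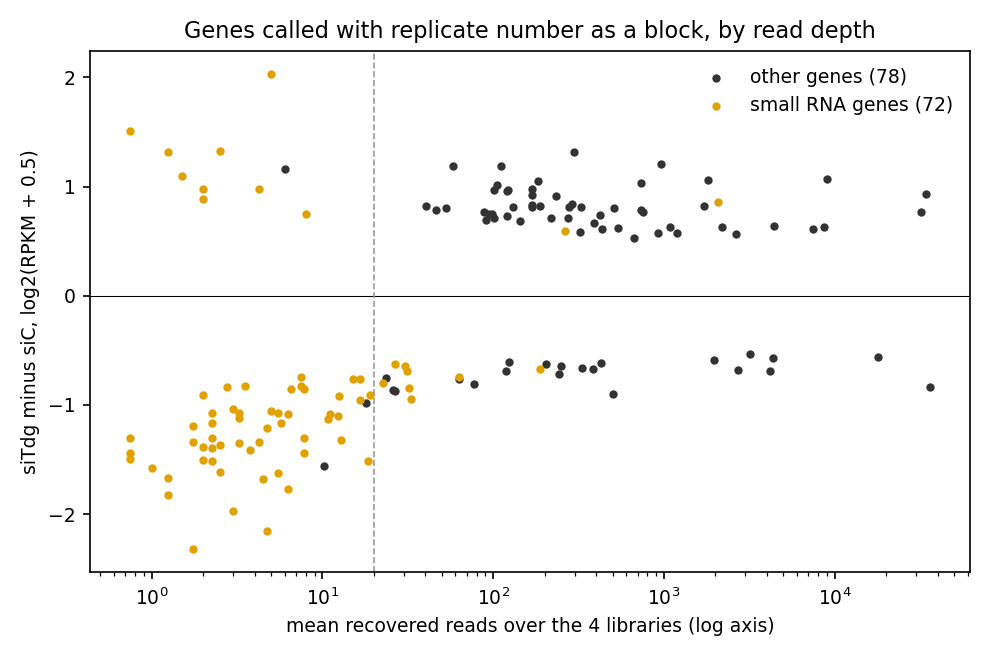
The 150 called genes by mean recovered reads over the 4 libraries (x axis, log) and change, siTdg minus siC in log2(RPKM + 0.5) (y axis). Yellow is small RNA genes and black other genes, and the dashed line marks 20 reads; most lower calls left of it are small RNA genes, 53 of them.

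The p53 pathway, the subject of the series, showed no call, against 1.13% of all genes tested. At that share a list of 37 targets often holds none. Trp53, the gene of p53, was at 62.1 and 34.1 RPKM in siC and 60.9 and 29.1 RPKM in siTdg (log2 change -0.13, SE 0.14). Cdkn1a, the cell-cycle inhibitor p21, was at 135.8 and 20.9 against 148.4 and 20.1 RPKM (0.04), so it differed between replicates and not between siRNAs. Mdm2, the ubiquitin ligase of p53, had 0.12 and Ccng1, cyclin G1, 0.18. Of 37 tested p53 targets 22 were above 0 and 15 below, with a median of 0.05, and 14 were above and 7 below 0 in both pairs. The shares above 0 and above 0 in both pairs, 59.5% and 37.8%, were near the 54.4% and 32.6% of all genes. The members with the largest matched changes were Ddb2, a sensor of ultraviolet damage, lower (4.16 and 12.7 against 2.57 and 9.2 RPKM, -0.52, adjusted p = 0.137), and Pmaip1, the death protein Noxa, higher (5.18 and 1.25 against 7.55 and 1.83 RPKM, 0.46, adjusted p = 0.321).

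Genes of DNA methylation and its removal had no call among 27 tested, against 1.13% of all genes tested. Of the 27, 14 were above 0 (51.9%, against 54.4% of all genes) and 13 below, with a median of 0.01. The alternative glycosylases Smug1 and Neil1 had log2 changes of 0.16 and -0.33, and Tet2, which oxidises 5-methylcytosine, -0.15. Neil1 was level in pair 1 (-0.07) and lower in pair 2 (-0.59), at 2.71 and 3.16 against 2.55 and 1.94 RPKM.

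Among cell-cycle genes none was called, against 1.13% of all genes tested. Of 35 genes of mitosis 29 were above 0 and 23 above 0 in both pairs, with medians of 0.14 and 0.15 in the pairs, against 54.4%, 32.6%, 0.06 and -0.02 over all genes. Kif11, a spindle motor, was at 12.1 and 13.5 against 14.8 and 17.7 RPKM, without overlap (0.33, adjusted p = 0.466 by limma), while Foxm1, a factor that drives mitotic genes, was lower in both pairs (-0.26). The 27 genes of DNA replication divided evenly, 13 above 0 and 14 below.

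Other tissues of the EBs also had no call, against 1.13% of all genes tested, a share at which short lists often hold none. Of 25 tested heart muscle genes 6 were above 0 in both pairs (24%) and 0 below 0 in both, against 32.6% and 21.8% of all genes. The 18 contractile and membrane protein genes had medians of -0.20 in pair 1 and 0.88 in pair 2, and the 7 transcription factors 0.13 and 0.10. Actc1, cardiac actin, was at 31.6 and 17.2 RPKM in siC and 21.5 and 48.1 RPKM in siTdg, and Myl7, the atrial myosin light chain, at 37.8 and 167.5 against 24.4 and 363.7 RPKM. Tnnt2, cardiac troponin T, was at 41.6 and 12.3 against 43.4 and 26.2 RPKM. All 3 were higher in siTdg in pair 2, and Actc1 and Myl7 were lower and Tnnt2 was level in pair 1. Of 8 tested neural genes, 14 pluripotency genes, 32 collagens and 27 Hox genes none was called, with medians of 0.17, -0.03, -0.01 and -0.07. Col1a1, the main collagen of mesenchyme, was at 1640.5 and 176.4 against 1992.3 and 114.1 RPKM.

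Signalling and stress lists stayed without calls but leaned to 1 side. For comparison, 1.13% of all genes tested were called. Among all genes tested 54.4% were above 0, 6065 of 13300 were below 0, and 21.8% were below 0 in both pairs. Of 23 integrated stress response genes 20 were above 0, with a median of 0.13 (0.29 in pair 1, 0.06 in pair 2). Psat1, an enzyme of serine synthesis, led in matched changes (19.9 and 37.9 against 24.5 and 59.7 RPKM, 0.47, adjusted p = 0.123 by limma). Of 19 interferon and antigen presentation genes 16 were above 0, with a median of 0.22; Ifit1 was at 0.548 and 0.67 against 1.19 and 1.17 RPKM (0.60, adjusted p = 0.171). Of 8 Wnt response genes 7 were below 0 and 6 below 0 in both pairs, with a median of -0.12; Axin2, a feedback inhibitor of Wnt signalling, was at 3.31 and 3.17 against 1.72 and 2.58 RPKM (-0.51, adjusted p = 0.266). Of 22 cholesterol synthesis genes 16 were below 0, with a median of -0.10. Of all 27 lists 15 had a median above that of all genes tested.

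Whether the day 11 differences exceed those seen in undifferentiated cells was tested in 1 model of 12 libraries with the 48 h and 96 h tables. No gene was called for day 11 minus 48 h (0%) or for day 11 minus 96 h (0%) by limma, while 1618 and 1296 genes were under an unadjusted p of 0.05. Limma-voom was not run on this contrast. The model had 3 residual degrees of freedom. Tdg itself, lowered at 48 h and not at day 11, did not pass for day 11 minus 48 h either. The absence of calls therefore does not show that the effects were alike. Afp had a difference of 1.10 (adjusted p = 0.175) from the 48 h effect of -0.03, but it was hardly transcribed at 48 h (0.0711 RPKM in siC). Genes expressed at both times are the fairer comparison. Pgk1 had an effect of -0.18 at 48 h, 0.00 at 96 h and 0.76 at day 11 (difference from 48 h 0.94, adjusted p = 0.194), and Ddit4 -0.49, -0.18 and 0.63 (difference from 48 h 1.13, adjusted p = 0.0771). Gli1 had 0.29 at 48 h, 0.39 at 96 h and -0.90 at day 11 (difference from 96 h -1.29, adjusted p = 0.288). These differences were as large as the day 11 changes themselves, yet none passed the threshold over all genes.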

How the data were processed

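RNA of 4 day 11 EB libraries was analysed, with 8 ESC libraries at 48 h and 96 h for comparison. Build mm9 and the tools Bowtie, TopHat, DESeq2 and DiffBind are named in the submitters' processing notes, with no counting tool or annotation given in the sources used here. The authors deposited RPKM, scaled separately per table, and a table of mean normalised signal per gene, log2 fold changes and p-values, signed here as siTdg minus siC. Reads were recovered from the RPKM and that signal, and 100% came out whole within 0.01. No 2 libraries were duplicates. The genes averaging 0.5 RPKM or more were fitted with limma 3.58.1 in R 4.3.3 (eBayes with trend, two-sided, Benjamini-Hochberg) on log2(RPKM + 0.5), with replicate number as a block. The block comes from the numbers in the titles, which the labels do not tie to a shared culture. Differences between times used a block for each table and number. The fit was tested on simulated data.

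Of 720 entries in 27 gene lists 717 matched by symbol and 1 by synonym. The members and lists were chosen with earlier results of these data known, so lists are described by counts and medians only. Genes named are Tdg, Trp53 and the p53 targets Cdkn1a, Mdm2 and Ccng1, the largest calls (up to 15 each way), the authors' 10 genes, up to 12 genes each way with the largest matched change in both pairs at 2 RPKM or more, and up to 4 members of a list in each direction with its defining members; others are given to complete a pathway or are said to be named after their values were seen, and the small RNA genes among the largest calls are given by count and examples. Promoter windows are the 250 bases before the RefSeq start. Alternatives were other pseudocounts (0.1 and 1), filters and scalings, no trend, no block, leaving out libraries, limma-voom on the reads and, chosen after seeing the data, a minimum of 20 mean reads. Single values of a few list members are not reported here.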

Additional observations from a re-analysis of the deposited data

How the results depend on the processing

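With the replicate block the count of 150 genes was 104 and 125 with pseudocounts of 0.1 and 1, 188 with a mean of at least 1 RPKM, 107 without trend, 102 by limma-voom and 145 with at least 20 mean reads. It was 73 (26 higher, 47 lower) with quantile normalization and 97 (35 higher) with median centring. A pseudocount of 0.1 gave 42 higher. Limma-voom gave 25 lower and the minimum of 20 reads 49 lower. With no filter it was 0, both higher and lower, and with no replicate block 0, both higher and lower. Same-numbered libraries deviated together from their group means, with a correlation of 0.95 over genes; with 2 pairs sharing only a number in the labels, this is a hint from the data. The model has 1 residual degree of freedom with the block (median SE 0.156) and 2 without (median SE 0.5). All 78 called genes that are not small RNAs kept their direction in every blocked alternative that tested them and with no replicate block. Without the block the change is the same mean of the 2 pairs, so its direction was fixed in advance. The blocked alternatives use the same 2 pairs that made the calls, so their direction is no separate check.

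Leaving out 1 library, which needs a fit without the block, sets 2 libraries against a single one, so the difference between replicate numbers enters. Called genes then numbered 0 to 1, higher 0 to 1 and lower 0 to 1. Of the 78 genes 59 kept their direction without siC replicate 1, 68 without siC replicate 2, 66 without siTdg replicate 1 and 61 without siTdg replicate 2. For named genes that turned sign the range was -0.32 to 2.70 for Ambp, -0.06 to 1.74 for Ankrd37, -0.20 to 1.74 for Apoa1, -0.35 to 1.97 for Apom (also -0.04), -0.68 to 1.94 for Ero1l (also -0.61), -0.97 to 3.60 for Hba-x (also -0.74), -2.29 to 4.41 for Hbb-bh1 (also -2.16), -1.62 to 4.04 for Hbb-y (also -1.18), -0.16 to 2.19 for Ndufa4l2 (also -0.09), -0.52 to 2.16 for Rbp4 (also -0.09) and -1.61 to 0.17 for Magel2. In the single pairs all 11 kept the direction of the main fit. That fit averages the same 2 pairs and was used to call these genes, so this is no separate check. Lists with a median above that of all genes numbered 11 to 18. The difference from 96 h gave 2 genes without trend, in place of 0.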

Other observations

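Among the 21 genes that held in 8 of the 9 other blocked fits, all but that without a filter, a few belong to no list above. Calb2, the calcium-binding protein calretinin, was at 2.78 and 1.12 RPKM in siC and 6.09 and 2.05 RPKM in siTdg (log2 change 0.83). Nepn, nephrocan, an extracellular protein known from gut endoderm, was at 1.05 and 20.4 RPKM in siC and 2.56 and 31.6 RPKM in siTdg (0.80). Pcbd1, a dehydratase, was at 4.29 and 10.7 against 6.38 and 20.3 RPKM (0.71), and Trap1a at 2.1 and 5.18 against 5.09 and 7.65 RPKM (0.81). In each of the 4 the siTdg library was higher in both pairs. They were named after their values were seen.

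Genes secreted by or typical of endoderm that the yolk sac list left out were also among the calls, chosen likewise by their values. Such genes are Vtn, vitronectin, at 1.07 and 0.89 against 2.15 and 1.87 RPKM (0.76), Apoc1 at 1.82 and 10.4 against 4.79 and 12.3 RPKM (0.71) and Tff3, a trefoil peptide, at 1.19 and 13.7 against 3.53 and 22.2 RPKM (0.97). The call of Apoc1 held in 2 of 9 other blocked fits, that of Vtn in 5 and that of Tff3 in 7.

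Lars2, the mitochondrial leucyl-tRNA synthetase gene, and the small RNA gene Mir6236 were both higher mostly in pair 1. Lars2 was at 130.3 and 178.2 RPKM in siC and 376.1 and 224.2 RPKM in siTdg, with log2 changes of 1.53 and 0.33 in the pairs. Mir6236 was at 256.9 and 494.2 against 778.9 and 536.4 RPKM, with 1.60 and 0.12. The call of Lars2 held in 7 of 9 other blocked fits and that of Mir6236 in 3. In the authors' deposited table Lars2 had a log2 change of 0.93 with an SE of 0.68 and did not pass.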
